A study of Mus musculus with 2 samples.

Results

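Prox1-negative excitatory neurons are the cells in which messenger RNAs of the excitatory neuron genes Neurod2, Neurod6, Slc17a7 and Tbr1 were counted while Prox1 was not. They were chosen by a rule on raw UMI counts (a UMI, or unique molecular identifier, marks 1 captured RNA molecule). A cell needed at least 500 genes, at least 1000 UMIs and at most 10% mitochondrial UMIs. It then needed at least 3 UMIs of the 4 excitatory genes together and 0 UMIs of Prox1. It could hold at most 1 UMI of Eomes, at most 1 of Dlx1, Dlx2 and Gad2 together, none of Lhx6 or Trp73, and at most 1 of the division genes Top2a, Mki67, Cdk1 and Ube2c together. The rule was met by 151 of 24298 cells. Library 1 gave 84 of its 12350 cells, or 0.680%, and library 2 gave 67 of its 11948, or 0.561%. The exact 95% intervals (Clopper-Pearson, counting error only) run from 0.543% to 0.841% and from 0.435% to 0.712%.

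The study profiled single cells freshly isolated from the brains of mice at postnatal day 10 with the droplet-based 10x Genomics 3' v3 kit, in 2 libraries of 1 group. The strain is given as C57BL/J, and the labels name no genotype, treatment, sex or brain region. The series names 6 mice and ties none of them to a library, so animals may be pooled in each. The libraries are replicates only as far as the labels go. The main fits take out the overall library difference, so p-values measure how far class differences disagree between these libraries, over all classes fitted. That disagreement may be technical.

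As background, excitatory neurons of the forebrain arise from progenitors that switch on Eomes, then Neurod1, and then Neurod2, Neurod6 and Tbr1, transcription factors of the growing glutamatergic neuron. Mature cells load glutamate into vesicles with the transporters Slc17a7 (VGLUT1) or Slc17a6 (VGLUT2). Prox1 is a homeobox factor needed by granule neurons of the dentate gyrus, a part of the hippocampus in which excitatory neurons are still being born after birth. The neurons described here are those in which no Prox1 UMI was counted.

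The deposited tables list 12978 barcodes for library 1 and 19508 for library 2, of which 95.2% and 61.2% passed the quality limits. The libraries shared 90 barcodes, none of them a member of the class. The doublet caller Scrublet marked 6 members in library 1 and 1 in library 2, which the rule keeps. Members had a median of 3335 UMIs in library 1 and 3069 in library 2, and a median of 1534 and 1504 genes. Globin genes were at 0 UMIs in the members of library 1 and at 53 UMIs in 32 of the 67 members of library 2. The microglia list of 10 genes summed to 6.59 and 124 CPM in the members (CPM, each gene's UMIs scaled to the same total in every class and library), with Csf1r and P2ry12 at 0 in both libraries.

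Neurod6 was the excitatory gene found in the most members, with 171 UMIs in 75 of 84 cells in library 1 and 100 UMIs in 50 of 67 in library 2. Its gene lies on mm10 at chr6:55677822-55681263. Tbr1, a T-box factor of early-born cortical and hippocampal neurons (chr2:61802930-61814114), had 84 UMIs in 50 cells and 93 UMIs in 45 cells. Neurod2, a partner of Neurod6 (chr11:98325415-98329648), had 74 UMIs in 47 cells and 62 UMIs in 40 cells. Slc17a7 (chr7:45163949-45176142) had 1 UMI in 1 cell of library 1 and 3 UMIs in 1 cell of library 2. The rule was thus met almost wholly through Neurod6, Tbr1 and Neurod2. Neurod6 and Tbr1 occurred together in 42 and 30 members, and all of Neurod2, Neurod6 and Tbr1 in 17 and 13. These values chose the members and carry no test.

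**Figure D1:**
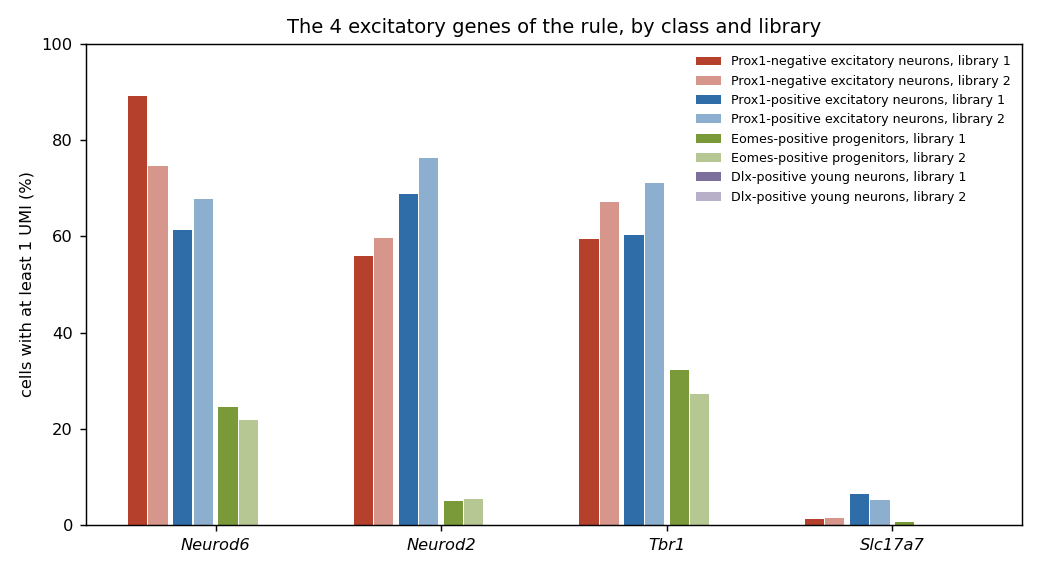
Share of cells with at least 1 UMI of each of the 4 excitatory genes of the rule (y axis, percent), by class (colour) and library (dark, library 1; light, library 2). Neurod6, Neurod2 and Tbr1 were each found in over 50% of the Prox1-negative neurons and Slc17a7 in 1.19% and 1.49%; the bars of the Dlx-positive young neurons are at 0 by their rule.

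Many members sat near the limits of the rule. Exactly 3 excitatory UMIs were found in 38 and 36 members of libraries 1 and 2, 4 in 26 and 18, and 5 or more in 20 and 13. Just outside, 101 and 59 cells met every other limit with 2 excitatory UMIs. On the Prox1 side, 27 and 23 cells met every other limit with exactly 1 Prox1 UMI, 25 and 9 with 2, and 41 and 27 with 3 or more. Those 93 and 59 Prox1-positive excitatory neurons are the nearest class. They held more UMIs per cell than the members, with a median of 4039 and 3993. Cells were then thinned to 2000 UMIs each. Those with fewer were left out, as in all shares at 2000 UMIs given below. After thinning, 67 of 92 Prox1-positive cells in library 1 (72.8%) and 39 of 56 in library 2 (69.6%) still held a Prox1 UMI. The members held more UMIs than that, with medians of 3335 and 3069, so the loss at their depth was not measured. With 27 and 23 of the Prox1-positive cells at 1 Prox1 UMI, a count of 0 does not show that Prox1 RNA was absent from a member. Prox1os, a transcript antisense to Prox1 that no limit of the rule used, stood at 69.2 and 37.2 CPM in the members and at 152 and 187 CPM in the Prox1-positive neurons. It was lower in the members of both libraries but not at 0. How overlapping genes were counted is not stated in the labels or headers, and Prox1 and Prox1os may share reads.

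Genes that the rule did not use were read beside the label of excitatory neurons. Zbtb18, a repressor needed for cortical excitatory neurons, stood at 778 and 748 CPM in the members against 81.9 and 78.6 in Dlx-positive young neurons, the inhibitory-lineage cells of the same suspensions. Emx1, a homeobox gene of the dorsal forebrain, stood at 119 and 120 CPM against 4.59 and 1.43. Both excitatory markers were higher in each library. The Dlx-positive class was required to hold none of the 4 excitatory genes, so this direction is no independent evidence for the label. Camk2a, a kinase gene of mature excitatory neurons, was at 0 and 8.27 CPM. Slc17a6 was found in 15 of 84 and 22 of 67 members, at 65.9 and 141 CPM. The list of 23 genes of immature neurons summed to 31409 and 31581 CPM in the members. It summed to 27432 and 28396 CPM in the Prox1-positive neurons and 25778 and 27921 in the Dlx-positive young neurons. In the Eomes-positive progenitors it summed to 18606 and 18528 CPM. A high sum is thus not particular to the members. In the members its gene Igfbpl1 stood at 3354 and 3162 CPM and the stathmin Stmn2 at 1127 and 1405. Doublecortin (Dcx), a microtubule protein of migrating neurons, stood at 755 and 822. The members thus carry genes of young neurons of the excitatory lineage, and the mature marker Slc17a7, 1 of the 4 genes that gave the class its name, is close to absent.

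Markers of brain regions and of other cell types were read as well. Of the 8 hippocampal pyramidal markers, Zbtb20 was at 2250 and 2042 CPM and Wfs1 and Spink8 were at 0. Of the 9 dentate granule markers, C1ql2, Dsp, Tdo2 and Plk5 were at 0, while Sema5a (102 and 99.2 CPM) and Rfx3 (69.2 and 78.5) were found. Stxbp6, C1ql3 and Calb1 were found at lower levels. Tbx21, the T-box factor of olfactory bulb projection neurons, was at 0, as were the cerebellar granule genes Barhl1, Gabra6 and Atoh1. Other genes of these lists were found. The olfactory bulb list of 6 genes, 3 of them at 0, summed to 82.4 and 157 CPM, most of it Slc17a6. The cerebellar list of 10, 6 of them at 0, summed to 72.5 and 70.3 CPM, from Pax6, Zic1, Zic4 and Cbln1. The deep layer list of 12 genes summed to 1667 and 2571 CPM. Pcp4, a calmodulin-binding protein on that list, alone gave 1232 and 1769 of these. The upper layer list of 11 genes summed to 1440 and 1471 CPM. The astrocyte list of 8 genes summed to 484 and 260 CPM, the oligodendrocyte-lineage list of 10 to 155 and 33.1 and the vascular list of 8 to 138 and 4.13.

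Against Prox1-positive excitatory neurons, the members had higher levels of Meis2, of POU factors of upper cortical layers and of some axon genes. Levels of Neurod1 and Gadd45g were lower. The called synapse genes, Syt4 and Nrgn, were less firm. DESeq2 did not call Syt4, and most Nrgn UMIs of the members came from a single cell. The comparison asks what else differs between cells that pass the same excitatory limits on either side of the Prox1 limit. Of 6213 genes tested, 42 were higher in the members (0.676%) and 14 were lower (0.225%). Calls needed 3 things: an adjusted p below 0.05 in edgeR's quasi-likelihood F test, a difference of 2-fold or more, and agreement of direction between the libraries. Genes of the rule were left out, but genes that vary with them were not, so the calls describe the classes as drawn. Without the replicate block 23 genes were higher and 7 lower.

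Meis2 is a TALE homeobox factor of patterning and neuronal fate (chr2:115863064-116065839). It stood at 550 CPM in library 1 and 789 in library 2 in the members, against 95.8 and 87.3 in the Prox1-positive neurons. Both member values lie above both Prox1-positive values, and the log2 fold change was 2.77 ± 0.23 (SE; edgeR adjusted p = 4.1e-06). After thinning to 2000 UMIs, Meis2 was found in 48.1% and 65.1% of the members and in 9.78% and 8.93% of the Prox1-positive neurons (unthinned 60.7% and 67.2% against 16.1% and 10.2%). Meis2 also stood at 908 and 1031 CPM in the Dlx-positive young neurons, so it is not particular to excitatory cells.

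The upper layer list of the cortex had 4 of 9 tested genes higher and none lower. Pou3f2, a POU factor of upper-layer neurons (chr4:22482780-22488366), was at 185 and 314 CPM in the members against 49.1 and 49.9 (log2 fold change 2.23 ± 0.27, edgeR adjusted p = 0.00035). Pou3f3, its relative, was at 336 and 364 CPM against 113 and 162. Pou3f1 was at 46.1 and 41.3 CPM in the members and at 0 UMIs in the Prox1-positive neurons of both libraries, which makes it at least 9.50-fold higher against a floor of 3 UMIs over the class. Unc5d, a netrin receptor of migrating upper-layer neurons, was at 109 and 141 CPM against 27.0 and 33.3. The list's median log2 fold change was 0.76, against 0.0022 over all genes tested. Of the 9 tested genes of the deep layer list none was called, and its median log2 fold change was 0.45. Pcp4 missed the fold limit at a log2 fold change of 0.94, and Bcl11b stood at 46.1 and 70.3 CPM against 46.7 and 58.2.

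Axon guidance had 3 of 20 tested genes higher and none lower, Epha5, Robo2 and Unc5d. Epha5, an ephrin receptor (chr5:84054761-84417382), was at 175 and 322 CPM in the members against 29.5 and 37.4 (log2 fold change 2.84 ± 0.35, edgeR adjusted p = 0.00039). Robo2, a receptor for the repellent Slit, was at 59.3 and 82.7 CPM against 9.83 and 8.32. Gap43, a growth cone protein, was the single called gene of the 23 on the immature neuron list, at 244 and 446 CPM against 103 and 83.2. That list's median log2 fold change was 0.14. Dcx did not pass the test, at 755 and 822 CPM against 757 and 911.

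Of 17 tested genes of the synapse list, Syt4 and Nrgn were higher and none was lower. Syt4, a synaptotagmin of secretory vesicles, was at 52.7 and 57.9 CPM in the members and was counted once in the Prox1-positive neurons. The ratio of pooled counts was 35.6 (exact 95% interval 5.92 to 1453, counting error only). DESeq2 did not call it (adjusted p = 0.078). Nrgn, the postsynaptic calmodulin-binding protein neurogranin, was at 547 and 215 CPM against 78.6 and 116, and 67.4% of its UMIs in the members came from 1 cell. Snap25, a protein of vesicle release, was at 119 and 182 CPM against 66.3 and 99.8, which did not pass the test. No glutamate receptor gene (5 tested) or GABA receptor gene (6 tested) was called. Gria2 stood at 613 and 773 CPM against 668 and 690.

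Among the genes with the largest fold changes, Lmo1, a LIM-only cofactor (chr7:109138572-109175207), was at 165 and 248 CPM in the members against 22.1 and 12.5. It was found in 27 of 84 and 30 of 67 members (log2 fold change 3.40 ± 0.41, edgeR adjusted p = 0.00033). Ssbp2, a partner of LIM-domain complexes, was at 132 and 145 CPM against 9.83 and 29.1. Zfhx4, a zinc finger homeobox gene, was at 56.0 and 70.3 CPM against 7.37 and 8.32. Runx1t1, a transcriptional corepressor, had 45 UMIs in 22 members and 1 UMI in the Prox1-positive neurons. All of these were seen in 22 or more members.

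Meg3 and Rian are maternally expressed non-coding RNAs of 1 imprinted region of chromosome 12 (Meg3 at chr12:109541001-109571726, Rian at chr12:109603940-109661716). Meg3 was at 132 and 417 CPM in the members against 24.6 and 8.32 (log2 fold change 3.72 ± 0.51, edgeR adjusted p = 0.00073). Rian was at 32.9 and 82.7 CPM against 4.91 and 4.16. Both were higher in each library, in 10 and 12 members for Meg3. Meg3 is not particular to the members. It was lower in them than in the Dlx-positive young neurons (log2 fold change -1.24, edgeR adjusted p = 0.00077). DESeq2 did not make that call (adjusted p = 0.33). Hs6st2, a heparan sulfate sulfotransferase, had 37 UMIs in 29 members against 3 UMIs in the Prox1-positive neurons. Its call had an edgeR adjusted p of 0.045 and was not made with DESeq2 (adjusted p = 0.077).

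A pair of the genes with the largest fold changes rested on 1 cell. Cck, the neuropeptide cholecystokinin (chr9:121489824-121495694), had 61 UMIs in 5 members and 0 in the Prox1-positive neurons, and 73.8% of these UMIs came from 1 cell. C730034F03Rik had 124 UMIs in 4 members, 95.2% of them in 1 cell. DESeq2 did not call the latter (adjusted p = 0.90), and with at most 5% mitochondrial UMIs its log2 fold change turned from 3.98 to -0.13.

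Lower in the members was Neurod1, the factor of newborn excitatory neurons (chr2:79452521-79456751), at 514 and 364 CPM against 963 and 1023. Its log2 fold change was -1.21 ± 0.14 (edgeR adjusted p = 0.00033), and both member values lie below both Prox1-positive values. At 2000 UMIs per cell it was found in 46.8% and 49.2% of the members and in 81.5% and 83.9% of the Prox1-positive neurons. The background in the Dlx-positive young neurons was 1.23% and 0.896%. Unthinned, the shares were 59.5% and 55.2%, 94.6% and 94.9%, and 0.956% and 0.774%. The unthinned shares cover all cells of each class, also those too shallow for thinning. Of the 12 tested genes on the list of other excitatory markers, which holds Neurod1, it alone was lower, Lmo3 and Mef2c were higher, and the median log2 fold change was -0.24. Gadd45g, a growth arrest gene of cells leaving the cycle, was at 168 and 116 CPM against 423 and 462 (log2 fold change -1.65 ± 0.18, edgeR adjusted p = 0.00016). It was the single called gene of the 18 tested on the progenitor and division list.

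Adamts18, a secreted protease, was at 19.8 and 24.8 CPM in the members against 147 and 141. Dab1, the adaptor that carries the Reelin signal in migrating neurons, was at 29.7 and 28.9 CPM against 130 and 99.8. Mfap4, Dpysl4, Btbd17, Stat3, Cacna1c, Crabp1 and Gal were lower as well, with log2 fold changes from -1.23 (Dpysl4) to -2.80 (Crabp1). Gal and Dpysl4 passed narrowly, both at an edgeR adjusted p of 0.049. With DESeq2 the calls of Cacna1c, Stat3, Crabp1, Dpysl4, Gal, Cpne9 and Gpr34 were lost, with adjusted p from 0.055 (Stat3) to 0.33 (Gpr34). Single cells carried 77.5% of the UMIs of Olfr889, 75.6% of those of Cpne9 and 91.7% of those of Gpr34 in the Prox1-positive neurons. Gpr34 is a receptor of microglia, and the microglia list summed to 167 and 669 CPM in that class against 6.59 and 124 CPM in the members. None of its 9 tested genes was called, and its part in the result was not tested. The astrocyte list summed to 258 and 320 CPM in the Prox1-positive neurons against 484 and 260 in the members, and the vascular list, carried by the pericyte genes Rgs5 and Vtn, to 14.7 and 4.16 against 138 and 4.13. Calb2, the calcium-binding protein calretinin carried by young granule neurons, stood at 1450 and 1161 CPM in the members and 1472 and 1726 in the Prox1-positive neurons (log2 fold change -0.33 ± 0.14, edgeR adjusted p = 0.34).

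**Figure D2:**
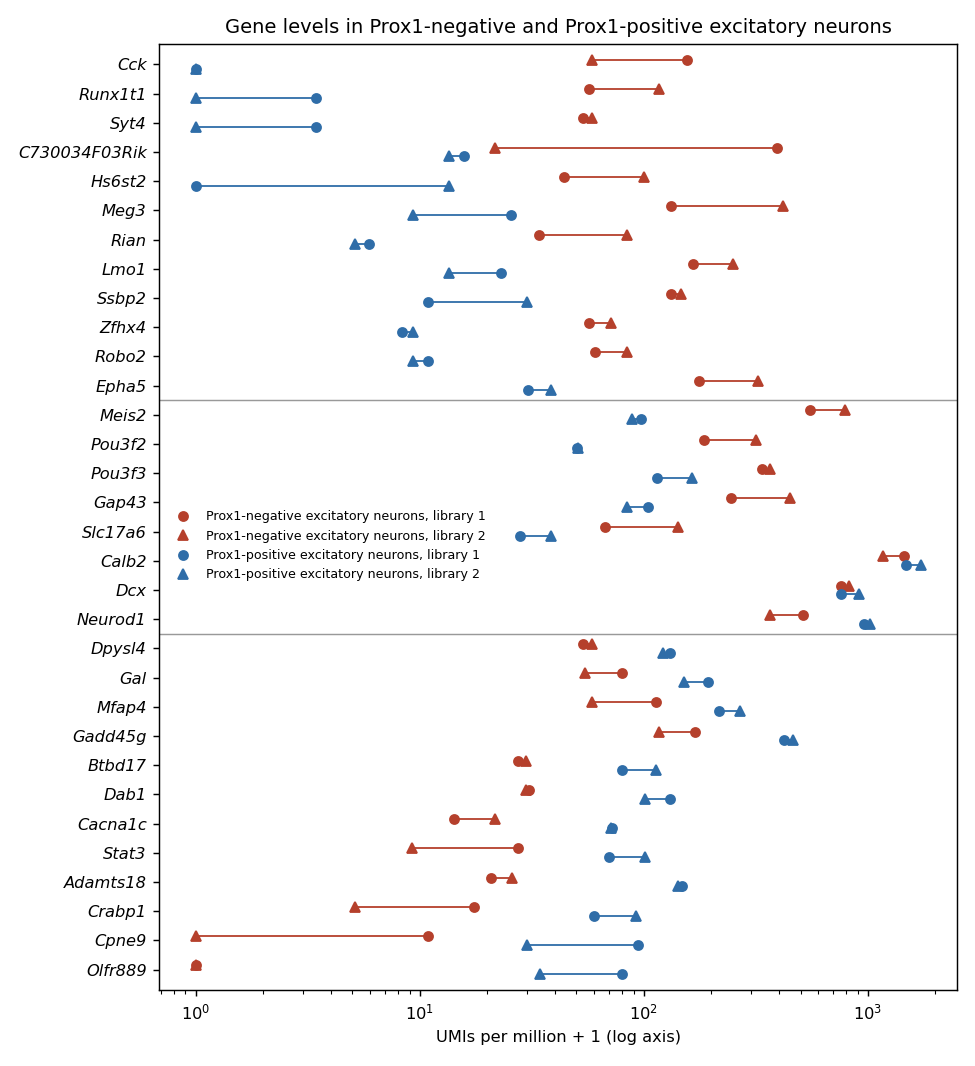
CPM + 1 (x axis, log scale) of each gene in the 2 libraries (circle, library 1; triangle, library 2; the line joins them) of the Prox1-negative and the Prox1-positive excitatory neurons. The upper and lower blocks hold the 12 genes named by the rule in each direction and the middle block 8 further genes; Meis2 (550 and 789 against 95.8 and 87.3 CPM) and Neurod1 (514 and 364 against 963 and 1023) stand apart in opposite directions, while Dcx and Calb2 lie close together.

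The members were not uniform. Clustered among themselves, they fell into 3 clusters of 38 to 54 cells and 1 of 6 cells. Each of the 3 came from both libraries in similar numbers. Clusters are made from the genes that describe them, so the values below are a description with no test, and the clusters carry numbers rather than names.

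Cluster 1 held 53 members, 27 from library 1 and 26 from library 2, with a median of 2725 UMIs. Every one of them had a Meis2 UMI, and Meis2 stood at 1462 and 1828 CPM against 300.1 in the other members together. Pou3f2 (735 CPM against 62.5), Pou3f3 (776 against 192), Unc5d (316 against 52.5) and Lmo1 (481 against 100.02) also led it. The upper layer list summed to 2969 CPM in this cluster, against 948 in cluster 2 and 709 in cluster 4. The deep layer list was highest here as well, at 2625 CPM against 1507 in cluster 2 and 2438 in cluster 4. Its gene Pcp4 stood at 1932 and 2495 CPM in cluster 1. Tbr1 was at 483 and 595 CPM. Slc17a6 was at 144 and 261 CPM, and Prox1os was at 0 UMIs in both libraries. Neurod1 (131 and 319 CPM) and Calb2 (496 and 203) were low in it.

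Cluster 2 held 54 members, 32 and 22 by library, with a median of 3617 UMIs. It was led by Mfap4, Prox1os, Lhx9 and Dpysl4 and held high levels of Neurod1 (940 and 714 CPM) and Calb2 (2320 and 2390 CPM). Emx1 was at 220.1 and 220.8 CPM, and Tac2, the precursor of neurokinin B, at 415 and 662. Mfap4, Dpysl4, Gadd45g and Neurod1, which lead this cluster, are genes that were lower in the members as a whole than in the Prox1-positive neurons. Prox1os stood here at 152 and 104 CPM, in 15 of 54 cells. Whether these cells hold Prox1 RNA that was not captured was not tested.

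Cluster 4 held 38 members, 20 and 18 by library, with a median of 3472 UMIs. It was led by Meg3 (468 and 1125 CPM), Syt1 (234 and 148), Mef2c (429 and 488) and Syt4 (195 and 136), among other genes. The synapse list summed to 3111 CPM, against 900.2 and 1128 in clusters 1 and 2. Nrgn gave 1195 of these 3111 CPM, and 147 of its 197 UMIs came from 1 cell of 12803 UMIs. Without Nrgn the sums were 1916, 852 and 1076 CPM. The list of sodium, potassium and calcium channels summed to 1285, against 673 and 743. These sums pool the 164918 UMIs of the cluster, and single cells held 12803, 14083 and 14403 of them. A few deep cells thus weigh heavily in the sums. Meg3 was found in 17 of the 38 cells, Syt1 in 15, Syt4 in 11 and Mef2c in 9. Gap43 was at 611 and 999.8 CPM. Igfbpl1, a gene of the youngest neurons, was at 2406 and 1261 CPM, against 4309 and 4975 in cluster 1. Nrgn stood at 1925 and 557 CPM but in 6 cells only.

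Cluster 3 held 6 cells, 5 from library 1, with a median of 7065 UMIs. It was led by the glial genes Mfge8, Apoe, Aldoc, Fabp7 and Olig1, and Scrublet marked all 6 as doublets. The astrocyte list summed to 3608 CPM here against 103 to 144 in the other clusters. Without these 6 cells, 51 genes were higher and 22 lower in the members than in the Prox1-positive neurons, and 39 of the 42 and 12 of the 14 were among them. The genes lost in that setting include the astrocyte gene Mfge8.

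**Figure D3:**
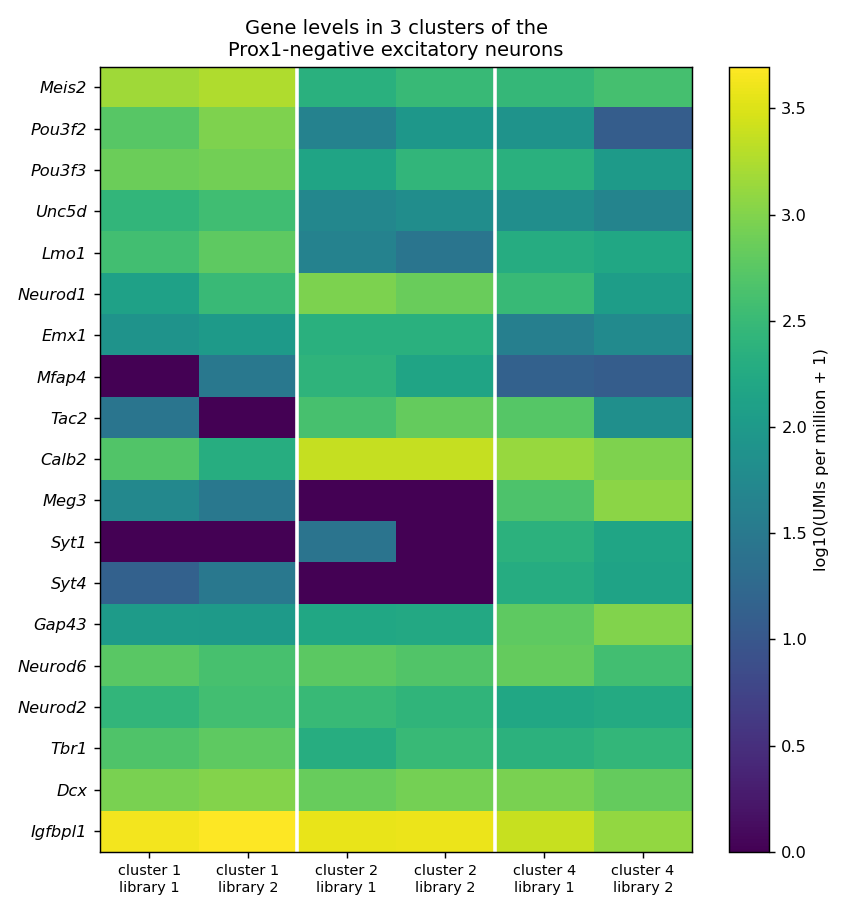
Levels of the genes named in rows, as log10(CPM + 1) on the colour scale, in clusters 1, 2 and 4 of the Prox1-negative excitatory neurons by library (columns). Meis2, Pou3f2 and Pou3f3 are high in cluster 1, Neurod1 and Calb2 in cluster 2, and Meg3 and Syt4 in cluster 4, in both libraries; Neurod6 and Dcx are similar in all.

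Single cells were counted for both genes. Meis2 without Neurod1 was found in 30 of 84 and 24 of 67 members, Neurod1 without Meis2 in 29 and 16, both in 21 and 21, and neither in 4 and 6. In cluster 1, 19 of the 53 cells held both genes and 34 Meis2 alone. In cluster 2, 14 of the 54 held both, 33 Neurod1 alone and 4 Meis2 alone. Neurod1 and Calb2 occurred together in 40 and 23 members. Depth differed between these groups of cells: members with Meis2 alone had a median of 2729 and 2828 UMIs and those with Neurod1 alone 3766 and 3682.

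**Figure D4:**
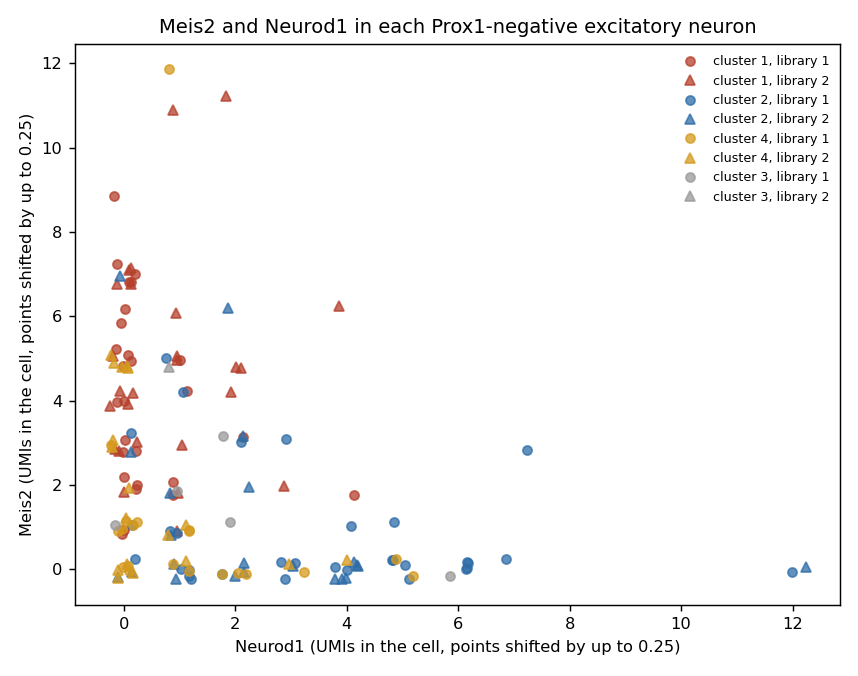
Meis2 UMIs (y axis) against Neurod1 UMIs (x axis) in each of the 151 Prox1-negative excitatory neurons, coloured by cluster, with the symbol giving the library (circle, library 1; triangle, library 2) and points shifted at random by up to 0.25. All 53 cells of cluster 1 hold Meis2, 19 of them with Neurod1 as well, and 33 of the 54 cells of cluster 2 hold Neurod1 without Meis2; 42 cells hold both genes.

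Against Eomes-positive progenitors, the members had lower genes of the progenitor and division list and higher genes of the immature neuron, axon guidance, synapse and receptor lists. This class holds 143 and 55 cells with at least 2 UMIs of Eomes, the T-box factor of intermediate progenitors, the dividing precursors of excitatory neurons. Of 6213 genes tested, 550 were higher in the members (8.85%) and 501 lower (8.06%). The progenitors had more UMIs per cell, with medians of 5666 and 6857.

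The division genes Spc25, Ccnb1, Ccna2, Aurkb, Hist1h1b, Tacc3 and Aspm had 107 to 297 UMIs each in the progenitors and 0 in the members. Against a floor of 3 UMIs over the class, the members were at least 15.5-fold (Aspm) to 43.1-fold (Spc25) lower. The rule limits 4 other division genes, so this direction follows in part from it. Of 18 tested genes of the progenitor and division list, 14 were lower and none higher. Neurog2, the proneural factor of excitatory progenitors, had 2 UMIs in the members against 115 and 114 CPM, and the Notch target Hes5 was at 36.2 and 16.5 CPM against 297 and 188. Both genes were called lower. Neurod1 differed by less than the fold limit (514 and 364 CPM against 349 and 247).

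Of the 23 immature neuron genes 11 were higher and 1, Elavl4, was lower. Stmn2 was at 1127 and 1405 CPM against 88.0 and 87.6 (log2 fold change 3.78 ± 0.15, edgeR adjusted p = 1.3e-10). Tubb3, the neuronal tubulin, was at 1684 and 1752 CPM against 498 and 451. The synapse list had 13 of 17 genes higher and none lower, and its median log2 fold change was 2.13 against 0.0071 over all genes tested. Its members include Syt1, at 69.2 and 53.7 CPM against 4.57 and 7.96.

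Receptor and guidance lists moved in the same direction. Of 5 tested glutamate receptor genes Grin2b, Gria1 and Gria2 were higher and none was lower, with the AMPA receptor subunit Gria2 at 613 and 773 CPM against 157 and 149. Of 6 tested GABA receptor and chloride transport genes 5 were higher and none lower. Of 20 axon guidance genes 13 were higher and none lower, among them the secreted semaphorin Sema3c, at 567 and 570.4 CPM against 102 and 103. Of 14 ion channel genes 8 were higher and 1, Cacna1a, was lower, a call lost with DESeq2 (adjusted p = 0.064). Of 9 upper layer genes 4 were higher and 1, Mdga1, was lower, and of 9 deep layer genes 2, Bcl11b and Tle4, were higher and 1, Fezf2, was lower. Bcl11b, a zinc finger factor of deep-layer neurons (chr12:107910403-108003602), had 31 UMIs in 22 members and 1 UMI in the progenitors. Fezf2 stood at 32.9 and 41.3 CPM against 98.3 and 76.9, and DESeq2 did not call it (adjusted p = 0.067). Dok6, a signalling adaptor, had 38 UMIs in 31 members and 0 in the progenitors, at least 29.1-fold higher. Meis2 was at 550 and 789 CPM against 162 and 101, and Calb2 at 1450 and 1161 against 198 and 111. Fabp3, a fatty acid binding protein, was at 188 and 219 CPM against 5.72 and 10.6. The microglia gene Fcer1g was lower in the members than in the progenitors, whose microglia list summed to 8.0 and 1061 CPM, and the part of other cells' RNA in that call was not tested. DESeq2 did not call Fcer1g (adjusted p = 0.15).

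Against Dlx-positive young neurons, the members had higher genes of the lists of other excitatory markers, axon guidance and synapse, and lower genes of the inhibitory neuron list. This class holds 2092 and 1938 cells with at least 3 UMIs of Dlx1, Dlx2 and Gad2 and none of the 4 excitatory genes. Its median depth was lower, at 2228 and 2126 UMIs. Of 6213 genes tested, 472 were higher in the members (7.60%) and 341 lower (5.49%).

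Slc17a6 (chr7:51622006-51671119) was at 65.9 and 141 CPM in the members and had 5 UMIs in 4030 Dlx-positive cells (log2 fold change 7.43 ± 0.50, edgeR adjusted p = 1.5e-08). Of 12 tested genes on the list of other excitatory markers 9 were higher and none lower, among them Bhlhe22, a basic helix-loop-helix factor, at 102 and 169 CPM against 2.72 and 1.02, and Neurod1, at 514 and 364 against 11.1 and 9.18. The members needed at least 3 UMIs of the 4 excitatory genes and this class none, so the direction of these markers is no independent evidence. Deep layer genes were higher for Pcp4, Rprm, Fezf2, Zfpm2 and Tle4 of 9 tested, and Etv1 was lower. Pcp4 was at 1232 and 1769 CPM against 39.1 and 37.6. Of 9 upper layer genes 4 were higher and none lower. The patterning factor Lhx2 was at 442 and 347 CPM against 35.5 and 23.7.

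Axon guidance had 14 of 20 genes higher and 2, Robo2 and Efnb2, lower, of which Efnb2 was not called with DESeq2 (adjusted p = 0.25). Sema3c (chr5:17574281-17730268) was at 567 and 570.4 CPM against 9.86 and 10.4, and was found in 116 of 151 members. Robo2, higher in the members than in Prox1-positive neurons, was at 59.3 and 82.7 CPM here against 179 and 208. The synapse list had 13 of 17 genes higher and none lower. Of 23 immature neuron genes 7 were higher and none lower, and Dcx, at 755 and 822 CPM against 762 and 923, did not pass the test. Calb2 was at 1450 and 1161 CPM against 57.3 and 54.7. The gastrin-releasing peptide gene Grp had 31 UMIs in 17 members and 4 UMIs in the Dlx-positive cells, and Tac2 was at 323 and 236 CPM against 7.99 and 3.27. Kctd4, which encodes a protein with a potassium channel tetramerisation domain, was at 115 and 149 CPM against 2.89 and 1.43.

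Of 13 tested inhibitory neuron genes 11 were lower and Calb2 alone was higher. The homeobox gene Dlx5 (chr6:6877805-6882085) had 0 UMIs in the members and 1107 in the Dlx-positive class, so it was at least 18.7-fold lower. Gad1, the enzyme that makes GABA, had 1 UMI in the members against 143 and 172 CPM, and the zinc finger gene Sp8 had 1 UMI against 232 and 302 CPM. Sp9 had 2 UMIs in the members. The rule limits Dlx1, Dlx2 and Gad2 in the members and requires them in this class, so the direction of their partners is no independent evidence. Meis2, which is on this list, was at 550 and 789 CPM against 908 and 1031 and missed the fold limit.

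Of the progenitor and division list 13 of 18 tested genes were lower with edgeR and 8 with DESeq2. All 9 tested microglia genes and all 3 tested globin genes were called lower in the members than in the Dlx-positive cells with edgeR, but 4 of the 9 and 0 of the 3 with DESeq2. The microglia list summed to 96.7 and 1216 CPM in that class, and its globin genes held 46717 UMIs in library 2, in 868 of 1938 cells. In library 1 globin genes had 0 UMIs in the members and 8 in the 2092 Dlx-positive cells, so the globin difference rests on library 2. The part of microglia and globin RNA in the other calls of this comparison was not tested.

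**Figure D5:**
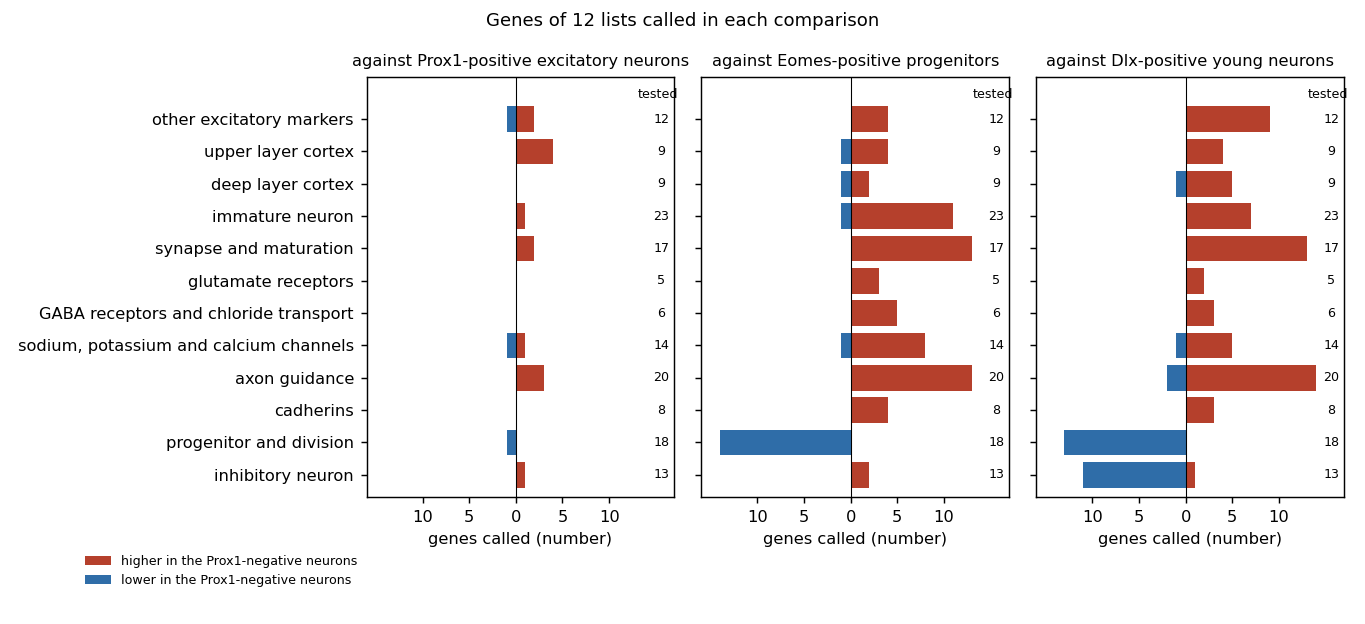
Number of genes called higher (red, to the right) and lower (blue, to the left) in the Prox1-negative excitatory neurons for 12 gene lists (rows) in the 3 comparisons (panels), with the number of genes tested at the right. The synapse list had 2 genes higher against the Prox1-positive neurons and 13 against each of the other classes; the progenitor and division list had 1, 14 and 13 genes lower.

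Among the members, cells with Tbr1 were compared with cells without, 50 against 33 in library 1 and 44 against 22 in library 2, each without Slc17a7. Tbr1 is 1 of the genes that the rule summed, so a member without it needed at least 3 UMIs of Neurod2 and Neurod6 together. Neurod6 stood at 431 and 289 CPM with Tbr1 and 753 and 708 without, and Neurod2 at 198 and 205 against 308 and 416. The rule thus shaped both groups, and the calls below describe the groups as drawn and support nothing beyond them. Of 2312 genes tested, 4 were higher in the Tbr1 cells (0.173%) and 0 lower (0.0%), while 150 had an unadjusted p under 0.05. They were Epha5, Meg3, Mpped1 and Eif1b, and DESeq2 called none in either direction. Without the replicate block 0 genes were called higher and 0 lower. Mpped1, a metallophosphoesterase gene expressed in developing cortex, was at 488 and 494 CPM with Tbr1 against 186 and 180 without. Epha5 was at 249 and 404 CPM against 72.9 and 153. Eif1b, a translation initiation factor gene, was at 822 and 1438 CPM against 429 and 652. Meg3 was at 204 and 430 CPM against 32.4 and 236, so library 2 of the cells without Tbr1 lay above library 1 of the cells with it. This fit left 1 residual degree of freedom. Calb2 did not pass the test, at 1196 and 1149 CPM with Tbr1 and 1725 and 1416 without.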

How the data were processed

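The authors deposited raw UMI counts for each gene in each cell barcode. Cell Ranger 6.1.2 made them, per the file headers, on build mm10, per the submitters' processing notes. No annotation release or cell calling setting is named in the labels or headers. Library totals were 51452085 and 45532691 UMIs, and the members summed to 545457 UMIs, which limits the precision for genes with few UMIs.

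The members, gene lists and tests were chosen with earlier results of these data known. Each class gave 1 UMI sum per library, and sums were compared in edgeR 4.0.16 (R 4.3.3) by its quasi-likelihood F test (TMM scaling, filterByExpr, two-sided, Benjamini-Hochberg adjustment over all genes tested). One fit held 4 classes and a block for the library, since a library is 1 suspension (8 sums, 3 residual degrees of freedom). The block was set from this origin, so same-numbered sums are paired by library. Genes of any class rule with Dlx1as and Prox1os (17 in all) and mitochondrial genes were left out. DESeq2 1.42.0 was an alternative. A planned comparison of members with and without Slc17a7 was not run, since each library had 1 cell with it, under the minimum of 20. The Tbr1 comparison therefore used members without Slc17a7.

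Named genes were, among called genes with at least 50 CPM in the higher class, the 12 with the largest fold change in each direction against Prox1-positive neurons and the 8 in each direction otherwise, plus genes of 27 lists. Other genes described, such as Gpr34, Apoe and Fabp7, were chosen after their values were seen. Some genes that these choices name are not reported here. Doublets were marked by Scrublet (scanpy 1.11.5, 6% expected) and kept: the automatic threshold marked 529 cells in library 1 and 1 in library 2, where the highest scores up to 6% (717 cells) were used. Members were clustered alone (2000 variable genes, 30 components, 15 neighbours, Leiden resolution 0.6). Leading genes of a cluster were those with the largest ratio to the other members (10 CPM added to both), at 50 CPM or more and in at least 20% of its cells. Gene positions are from GENCODE M21 on mm10, counted from 1. Tests were checked on simulated data. Other software was igraph 0.11.9, pandas 2.3.3, scipy 1.17.1, numpy 2.4.6 and Python 3.11.15.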

Additional observations from a re-analysis of the deposited data

How the results depend on the processing

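Alternatives changed 1 choice at a time. The share of cells that met the rule (mean 0.620% over the libraries) was 1.28% with at least 2 excitatory UMIs, 0.135% with at least 5, 0.857% among cells with at least 2500 UMIs and 0.0695% with each cell thinned to 1000 UMIs, since fewer UMIs leave fewer marker counts. It was 0.561% without replicate 1 and 0.680% without replicate 2. Against Prox1-positive neurons, the 42 higher genes became 81 with no filter on low counts, 92 with at least 2 excitatory UMIs and 23 without the replicate block, all 23 of them among the 42. The 14 lower genes became 8 with DESeq2, 42 with no filter, 7 without the replicate block, 39 with at least 2 excitatory UMIs, 9 with at least 5, 24 with Prox1 of at least 2 UMIs in the positive class and 22 without the 6 cells of cluster 3, an alternative chosen after seeing the data. Of the 24 genes named there, 14 of the 20 that could be tested lost their call with at least 5 excitatory UMIs, 9 with DESeq2, and 8 each without the replicate block and with at least 2500 UMIs. Meg3, Rian, Runx1t1, Ssbp2, Gadd45g, Cck and Olfr889 lost it under none that could test them. Most UMIs of Cck and Olfr889 came from 1 cell, so a kept call does not show that many cells carry a gene. C730034F03Rik reversed to a log2 fold change of -0.13 with at most 5% mitochondrial UMIs. Against Eomes-positive progenitors, the 550 higher genes became 363 with at least 5 excitatory UMIs. Against Dlx-positive neurons, the 341 lower genes became 177 with DESeq2 and 653 with no filter. For Tbr1, the 4 higher genes became 0 with DESeq2, 0 without the replicate block, 0 with at most 5% mitochondrial UMIs, and 7 each with no filter, without marked doublets and without cluster 3; the 0 lower genes became 2 with at least 2 excitatory UMIs and 1 without doublets. That comparison could not be fitted with at least 5 excitatory UMIs or 2500 UMIs (a subgroup under 20 cells). With 1 library left out no residual degrees of freedom remain, so only the CPM ratio within the other library was read. Calls already required the same direction in both libraries. Every gene named against the 3 other classes therefore kept its direction by rule, which is no further check. The cause of these changes was not tested.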
